A study of Mus musculus with 6 samples.

Results

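Collagen genes encode the triple-helical proteins of the extracellular matrix. They were taken here as all protein-coding genes whose symbol is Col, a number, the letter a and a number. This rule found 45 of the 55487 genes in the deposited table, of which 21823 are protein-coding. One of the 45 names, Col4a3bp, belongs to a ceramide transfer protein and not to a collagen, so 44 collagen genes remained. Col4a3bp measured 6.24 to 6.9 RPKM in WT and 7.43 to 8.79 RPKM in DTR libraries, was not called (log2 change 0.26, limma adjusted p = 0.184) and enters no count below. Of these, 24 were abundant enough to be tested and 20 fell below the filter, which kept genes with a mean log2 RPKM above -2. RPKM is the number of reads of a gene scaled by its length and by the size of the library, so levels of different genes can be set side by side.

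The libraries were made from total RNA of whole small intestine of adult C57BL/6 mice more than 8 weeks old. The 3 WT libraries came from wildtype mice and the 3 DTR libraries from Lgr5-2A-DTR mice, in which the gene for the diphtheria toxin receptor is joined to Lgr5, so that the toxin kills Lgr5-expressing crypt stem cells. Mice of both groups received diphtheria toxin at 20 µg/kg on each of 4 days, and tissue was collected 6 hours after the last dose. All groups are thus toxin-treated, and no library of untreated mice was analysed here. The comparison asks which collagen transcripts differ in level when stem cells carry the receptor. Whether the 6 libraries are 6 different mice is not stated in the labels, and the p-values describe only the spread among these libraries, part of which may be technical.

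Collagens are secreted as trimers of alpha chains after hydroxylation and folding in the endoplasmic reticulum. Fibrillar collagens give the gut wall its tensile strength, collagen IV forms the network of basement membranes, collagen VI forms beaded filaments between cells and fibrils, and the remaining classes attach to or link these structures. In the intestine most collagen is made by fibroblasts and smooth muscle cells below the epithelium, while endothelial and epithelial cells also add to the basement membrane. In bulk tissue, fewer cells of a type and less RNA per cell cannot be told apart.

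Reads assigned to genes ranged from 61404574 to 76596766 per library. Lgr5 had 315, 254 and 229 reads in the WT libraries and 22, 0 and 34 in the DTR libraries, a mean of 0.371 ± 0.0668 RPKM (SD, n = 3) against 0.0289 ± 0.0269 RPKM. The groups did not overlap, and a two-sided exact permutation test gave p = 0.1, the smallest that 3 against 3 libraries allow. Xist, transcribed from the inactive X chromosome, had 16 to 38 reads in the WT libraries and 22432 to 24279 in the DTR libraries, and the Y-linked genes Kdm5d, Uty, Ddx3y and Eif2s3y had 0 reads in every DTR library. Genotype and this sex-linked pattern therefore cannot be told apart in any comparison below.

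Col6a3, Col6a4, Col15a1, Col27a1 and Col4a5 were lower in DTR intestine, each between 2.52-fold and 2.97-fold in mean RPKM. They are 5 of the 24 tested collagens (20.8%), and limma called 8.90% of the 15555 genes tested lower at a Benjamini-Hochberg adjusted p below 0.05. No collagen was called higher, where limma called 9.68% of all tested genes higher. Without the adjustment, 7 tested collagens (29.2%) were lower and 1 was higher at p below 0.05, beside 18.5% lower and 20.3% higher of all tested genes. Col27a1, Col4a5 and Col12a1 passed the filter through their WT level alone, with a mean log2 RPKM of -1.15, -1.27 and -1.46 in WT and of -2.74, -2.61 and -2.35 in DTR libraries. Members let in through the group where they are high had to differ, so the count of 5 is a description and no sign that collagens as a group were lower. The change was negative for 19 of the 24 and positive for 5, with a median log2 change of -0.33 beside 0.03 over all tested genes. Single changes ran from -1.59 for Col27a1 to 1.07 for Col6a5. For 7 tested collagens (29.2%) the highest DTR value was below the lowest WT value, beside 22.6% of all tested genes. For 2 (8.33%) the lowest DTR value was above the highest WT value, beside 25.1% of all tested genes. No collagen was called lower when WT replicate 1, 2 or 3 was left out. Col6a3, Col6a4 and Col15a1 were then tested and not called. Col27a1 and Col4a5 then fell below the filter and were not tested, so these fits do not bear on their calls. Calls over all tested genes fell from 2890 to between 225 and 245, so the loss was not particular to collagens. In a separate fit of all 6 libraries with no filter on low genes, Col6a3 alone among the 44 collagens was called. That fit called 4.19% of its 31972 genes lower and 3.79% higher.

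**Figure D1:**
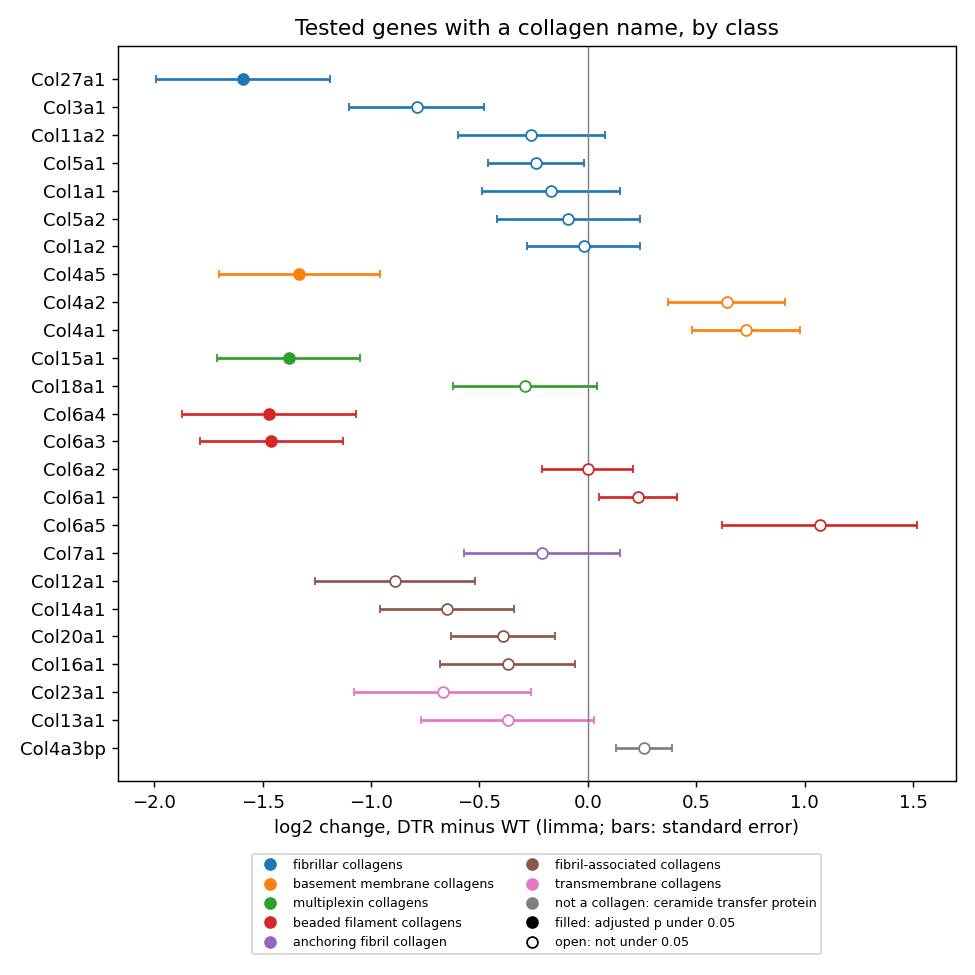
Log2 change of each tested collagen gene, DTR minus WT, with its standard error, grouped by class in colour; filled points mark the 5 genes called lower by limma, and the grey point at the bottom is Col4a3bp, which is not a collagen. Changes run from -1.59 (Col27a1) to 1.07 (Col6a5), and 19 of the 24 collagens lie left of 0.

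Collagen VI is built from a core of Col6a1, Col6a2 and a longer chain that Col6a3, Col6a4, Col6a5 or Col6a6 can supply. Col6a3 (chr1:90765923-90843971, minus strand, mm10), the usual long chain of connective tissue, measured 1.44, 1.22 and 1.22 RPKM in WT replicates 1 to 3 and 0.417, 0.34 and 0.723 RPKM in DTR replicates 1 to 3. All DTR values lay below all WT values, with DTR replicate 3 the nearest. The means were 1.29 ± 0.127 and 0.493 ± 0.202 RPKM (SD, n = 3), a log2 change of -1.46 with SE 0.33 and a limma adjusted p of 0.032.

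Col6a4 (chr9:105989454-106096783, minus strand) encodes another long chain of collagen VI. Its levels were 4.25, 4.57 and 3.74 RPKM in WT and 1.85, 0.789 and 2.34 RPKM in DTR libraries. The groups did not overlap, and DTR replicate 2 was the lowest of the 6 libraries. The log2 change was -1.47 with SE 0.40 and a limma adjusted p of 0.0489. Its exons share 3.39% of their bases with the opposite-strand genes Gm47575 and Gm36993, whose reads cannot be told apart from its own without a stated strand setting.

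Neither core chain was called. Col6a1, the most abundant collagen here, measured 9.4, 8.84 and 6.8 RPKM in WT and 9.58, 8.47 and 11.1 RPKM in DTR libraries, a log2 change of 0.23 with SE 0.18 and a limma adjusted p of 0.376. Its partner Col6a2 measured 3.29, 3.33 and 2.63 RPKM against 3.04, 2.48 and 3.81 RPKM, a log2 change of 0.00 with SE 0.21. For both genes the groups overlapped. Col6a5 measured 0.47, 0.306 and 0.186 RPKM in WT and 0.73, 0.425 and 0.805 RPKM in DTR libraries, with overlapping groups and a log2 change of 1.07 (SE 0.45, limma adjusted p = 0.13). Col6a6 had 8 or fewer reads in every library.

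Put as ratios within each library, Col6a3 stood at 0.153, 0.138 and 0.18 of the Col6a1 level in WT and at 0.0436, 0.0401 and 0.0648 in DTR libraries, a mean log2 difference of -1.69. The ratio of Col6a4 to Col6a1 was 0.452, 0.517 and 0.55 in WT and 0.193, 0.0931 and 0.21 in DTR libraries, also a difference of -1.69. Both ratios were apart between groups, with no overlap. The SD of the log2 ratio was 0.19 in WT and 0.37 in DTR libraries for Col6a3, and 0.14 and 0.65 for Col6a4. Col6a2 relative to Col6a1 was also apart but moved little, from 0.35, 0.376 and 0.386 to 0.318, 0.293 and 0.342, a log2 difference of -0.23. These ratios, like the 5 other pairs of chains compared, were chosen after values were seen and carry no test.

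**Figure D2:**
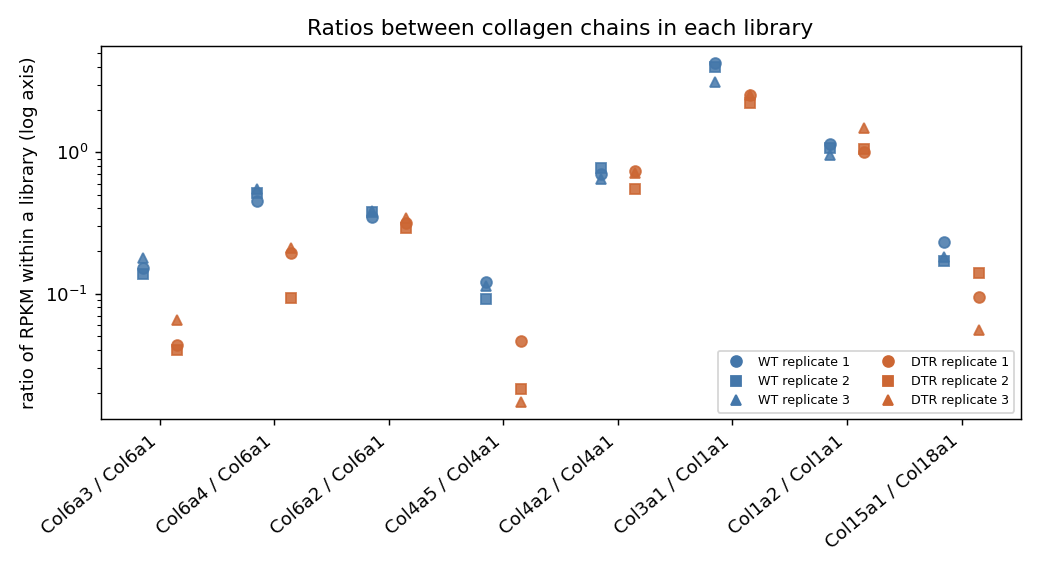
Ratio of RPKM of chains of one collagen, or of related collagens, in each library on a log axis; each point is 1 library, with its group in colour and its replicate by shape. The ratios of Col6a3 and Col6a4 to Col6a1 and of Col4a5 to Col4a1 are lower in all 3 DTR libraries, while Col4a2 to Col4a1 and Col1a2 to Col1a1 overlap.

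Of the 6 basement membrane collagens 3 were tested, and 1 was called lower. Col4a5 (chrX:141475385-141689234, plus strand), the X-linked chain that is mutated in human Alport syndrome, measured 0.533, 0.372 and 0.355 RPKM in WT and 0.21, 0.152 and 0.137 RPKM in DTR libraries. The groups did not overlap, and the log2 change was -1.33 with SE 0.37 and a limma adjusted p of 0.049. This gene too was tested because of its WT level, and without the filter its limma adjusted p was 0.0873. This is an X-linked gene in groups that also differ in Xist, and the part of that difference in the result was not tested. Its neighbour Col4a6, also X-linked and below the filter, had 107, 83 and 74 reads in WT and 47, 18 and 62 in DTR libraries.

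Col4a1, a chain of the collagen IV found in nearly all basement membranes, measured 4.4, 4.09 and 3.14 RPKM in WT and 4.57, 7.14 and 7.95 RPKM in DTR libraries. Its partner chain Col4a2 measured 3.09, 3.14 and 2.03 RPKM in WT and 3.38, 3.89 and 5.66 RPKM in DTR libraries. For both genes all DTR values lay above all WT values, with DTR replicate 1 close to the WT libraries. The log2 change of 0.73 (SE 0.25) for Col4a1 did not pass (limma adjusted p = 0.0838), nor did that of 0.64 (SE 0.27) for Col4a2 (limma adjusted p = 0.13). Without DTR replicate 1 Col4a1 was called higher, with a log2 change of 0.97 and a limma adjusted p of 0.0147. That fit called 18.4% of all tested genes higher, beside 9.68% in the fit of all 6 libraries. Over the 18 other settings tried, Col4a1 was called in 2. Col4a1 and Col4a2 lie head to head on chr8 with start sites 21 bases apart, and the ratio of Col4a2 to Col4a1 was 0.701, 0.768 and 0.645 in WT and 0.739, 0.545 and 0.712 in DTR libraries, which overlap. Col4a5 stood at 0.121, 0.091 and 0.113 of the Col4a1 level in WT and at 0.046, 0.0213 and 0.0172 in DTR libraries. Col4a3 and Col4a4, which join Col4a5 in specialised basement membranes, were below the filter and overlapped between groups.

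The multiplexins Col15a1 and Col18a1 encode proteoglycan collagens that sit at basement membranes. Col15a1 (chr4:47208161-47313167, plus strand) measured 1.2, 0.906 and 0.721 RPKM in WT and 0.271, 0.456 and 0.363 RPKM in DTR libraries. The groups did not overlap, and the means were 0.943 ± 0.243 and 0.363 ± 0.0922 RPKM (SD, n = 3). The log2 change was -1.38 with SE 0.33 and a limma adjusted p of 0.0353. Col18a1, the precursor of endostatin, measured 5.19, 5.3 and 3.98 RPKM in WT and 2.86, 3.24 and 6.52 RPKM in DTR libraries. DTR replicates 1 and 2 were below all WT libraries and DTR replicate 3 was above them, so the groups overlapped (log2 change -0.29, SE 0.33, limma adjusted p = 0.543). The ratio of Col15a1 to Col18a1 was 0.232, 0.171 and 0.181 in WT and 0.0947, 0.141 and 0.0556 in DTR libraries, with no overlap.

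**Figure D3:**
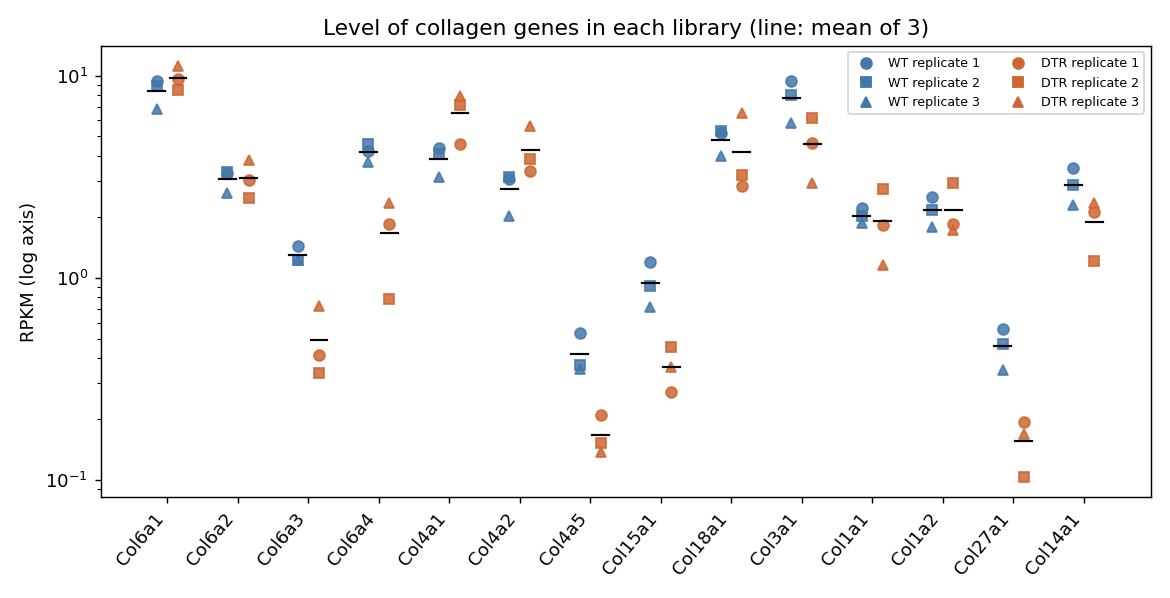
RPKM of named collagen genes in each of the 6 libraries on a log axis; each point is 1 library, its shape gives the replicate, and lines mark the group means. The DTR points of Col6a3, Col6a4, Col15a1, Col27a1 and Col4a5 lie below all WT points, those of Col4a1 and Col4a2 lie above them, and Col1a2 and Col6a2 overlap.

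Of the fibrillar class, 7 of 11 genes were tested and 1 was called lower. Col27a1 (chr4:63214004-63334991, plus strand), a fibrillar collagen best known from cartilage, measured 0.557, 0.472 and 0.349 RPKM in WT and 0.193, 0.104 and 0.168 RPKM in DTR libraries. These values rest on 345 to 536 reads in WT and 83 to 162 in DTR libraries and did not overlap. The log2 change was -1.59 with SE 0.40 and a limma adjusted p of 0.0402, in a gene that was tested because of its WT level. Without the filter its limma adjusted p was 0.0658. The cartilage collagens Col2a1, Col10a1 and Col11a1 had at most 22 reads in any library. The cartilage and bone markers Acan, Comp, Matn1, Ibsp, Bglap and Sp7 summed to 0.196 to 0.241 RPKM in WT and 0.0866 to 0.237 RPKM in DTR libraries, and none of the 6 was abundant enough to be tested.

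The major fibrillar chains were more abundant and none was called. Col3a1, which forms the fine reticular fibres of the gut wall, measured 9.45, 8.04 and 5.82 RPKM in WT and 4.63, 6.2 and 2.95 RPKM in DTR libraries. DTR replicate 2 exceeded WT replicate 3, so the groups overlapped, and the log2 change was -0.79 (SE 0.31, limma adjusted p = 0.112). With libraries weighted by their quality in limma, the change was -1.09 and the adjusted p 0.0429. That fit called 15% of all tested genes lower, beside 8.90% in the main fit. Of the 18 other settings tried, it was the only 1 that called Col3a1. Col1a1, a chain of the main fibril-forming collagen I, measured 2.21, 2.03 and 1.86 RPKM against 1.82, 2.76 and 1.16 RPKM (log2 change -0.17, limma adjusted p = 0.72). Its partner Col1a2 measured 2.52, 2.16 and 1.78 RPKM against 1.85, 2.93 and 1.73 RPKM (log2 change -0.02, limma adjusted p = 0.966). Both overlapped between groups, and DTR replicate 2 was the highest library for each. Relative to Col1a1, Col3a1 stood at 4.27, 3.97 and 3.13 in WT and at 2.54, 2.24 and 2.54 in DTR libraries, with no overlap, while the ratio of Col1a2 to Col1a1 overlapped. Col5a1, Col5a2 and Col11a2, whose products are minor chains that set fibril width, had log2 changes of -0.24, -0.09 and -0.26, and none passed.

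Fibril-associated collagens attach to the surface of fibrils. Of 9 genes 4 were tested, and none was called. Col14a1 measured 3.5, 2.87 and 2.28 RPKM in WT and 2.12, 1.21 and 2.34 RPKM in DTR libraries, with overlap and a log2 change of -0.65 (SE 0.31, limma adjusted p = 0.165). Col12a1 measured 0.455, 0.36 and 0.294 RPKM against 0.204, 0.152 and 0.243 RPKM. All its DTR values were below all WT values, but the log2 change of -0.89 did not pass (limma adjusted p = 0.123). Col20a1 also lay lower in all DTR libraries, with a log2 change of -0.39 (limma adjusted p = 0.263), and Col16a1 overlapped with a change of -0.37. Col7a1, which forms the anchoring fibrils under epithelia, measured 0.923, 1.43 and 1.12 RPKM against 1.37, 1.15 and 0.612 RPKM and overlapped. The transmembrane collagens Col13a1 and Col23a1 had log2 changes of -0.37 and -0.67 and overlapped as well.

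The 20 collagens below the filter add little to the total. None was called in a fit without a filter, where 4.19% of 31972 genes were called lower and 3.79% higher. Of the 20 collagens, 15 had a mean under 0.1 RPKM in both groups, and 7 had 0 reads in at least 1 library. In 3 of the 20 all DTR libraries lay lower, beside 10.3% of the 16417 genes below the filter with at least 1 read. Col9a3 had 56, 52 and 53 reads in WT and 23, 28 and 15 in DTR libraries, Col24a1 had 48, 52 and 30 against 17, 10 and 10, and Col25a1 had 82, 34 and 48 against 23, 14 and 10.

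Summed over the 44 genes, collagen RPKM was 60.8, 56.4 and 44.1 in WT and 44.1, 47.8 and 54.3 in DTR libraries, so the total overlapped between groups (53.8 ± 8.69 and 48.7 ± 5.16, SD, n = 3). Shares of that sum were then compared as a description, with no test. Basement membrane collagens IV took 14.0%, 14.1% and 13.3% of it in WT and 19.1%, 24.4% and 25.9% in DTR libraries, with no overlap. Fibrillar collagens took 29.0%, 27.1% and 27.6% in WT and 24.0%, 30.5% and 14.8% in DTR libraries, which overlap, and the shares of beaded filament collagens and multiplexins overlapped too. Fibril-associated collagens took at least 9.23% in each WT library and 6.02% to 8.82% in DTR libraries, with no overlap. WT replicate 3 had the lowest WT level for 21 of the 24 tested collagens and WT replicate 1 the highest for 18. Among DTR libraries, DTR replicate 2 was the lowest for 11 and DTR replicate 3 the highest for 13.

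**Figure D4:**
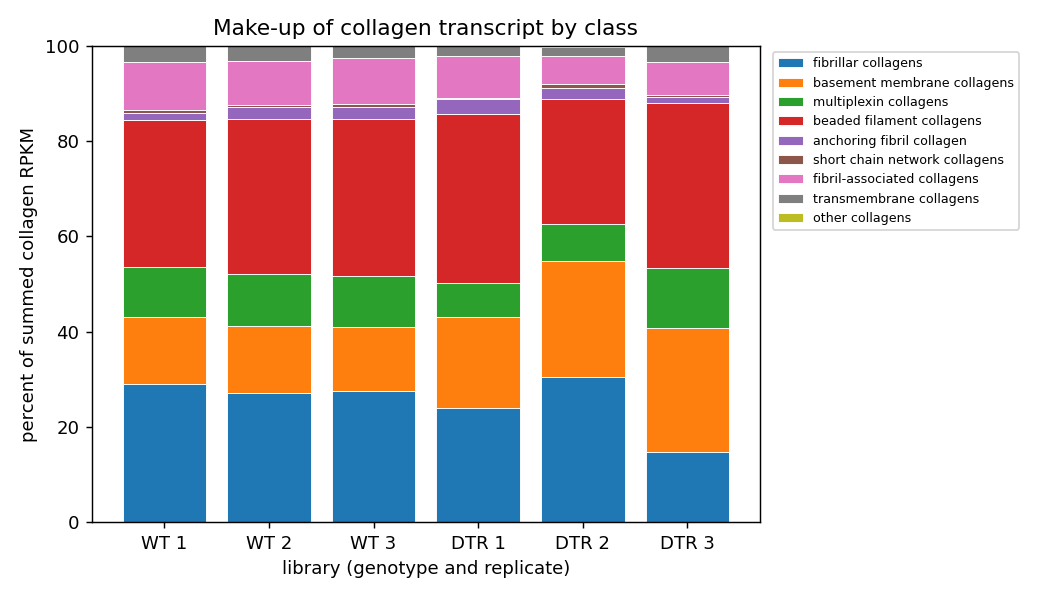
Share of summed collagen RPKM taken by each structural class in each of the 6 libraries, in percent. The basement membrane share is 13.3% to 14.1% in WT and 19.1% to 25.9% in DTR libraries.

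The sequence before the start of each gene that was called lower is given here, as the stretch next to each RefSeq start. Each run is read in the gene's direction, 5′ to 3′, from RefSeq windows on GRCm38.p6, and ends before the RefSeq start or the first base of an exon of that gene in GENCODE M21. The Col27a1 run lies inside the gene as GENCODE M21 draws it, since a transcript there starts farther upstream, and holds no exon base. Capitals mark a match on either strand to 1 of 4 motifs, spelled CCAAT for the CCAAT box and TATAAA for the TATA box, with GGGCGG for the GC box and TGANTCA for the AP-1 site. The runs are chr1:90843972-90844221 and chr9:106096784-106096941 on the minus strand, and chr4:47207762-47208011, chr4:63215162-63215411 and chrX:141475169-141475384 on the plus strand.
Col6a3: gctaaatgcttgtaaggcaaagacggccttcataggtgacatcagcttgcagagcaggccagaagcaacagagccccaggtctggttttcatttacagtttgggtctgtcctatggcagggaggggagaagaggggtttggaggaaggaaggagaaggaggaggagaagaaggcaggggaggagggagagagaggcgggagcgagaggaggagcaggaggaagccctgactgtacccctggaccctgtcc
Col6a4: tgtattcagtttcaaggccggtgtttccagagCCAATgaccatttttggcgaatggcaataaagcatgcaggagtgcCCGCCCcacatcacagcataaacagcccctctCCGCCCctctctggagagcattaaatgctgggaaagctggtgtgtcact
Col15a1: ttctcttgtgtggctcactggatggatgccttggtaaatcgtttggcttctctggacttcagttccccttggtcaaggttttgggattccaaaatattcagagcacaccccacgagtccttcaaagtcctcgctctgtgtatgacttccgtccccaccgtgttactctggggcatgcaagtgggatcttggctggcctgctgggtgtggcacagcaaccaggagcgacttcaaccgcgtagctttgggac
Col27a1: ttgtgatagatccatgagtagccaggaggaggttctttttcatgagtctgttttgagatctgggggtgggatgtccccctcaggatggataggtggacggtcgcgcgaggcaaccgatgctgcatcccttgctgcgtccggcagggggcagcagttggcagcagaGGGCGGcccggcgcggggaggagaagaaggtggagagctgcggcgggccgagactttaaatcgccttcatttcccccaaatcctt
Col4a5: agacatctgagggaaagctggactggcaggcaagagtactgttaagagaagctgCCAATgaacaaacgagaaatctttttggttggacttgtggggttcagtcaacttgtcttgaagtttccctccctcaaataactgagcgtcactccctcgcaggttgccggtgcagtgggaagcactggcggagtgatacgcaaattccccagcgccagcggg

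The Col6a3 and Col15a1 runs held no match to the 4 motifs. The Col27a1 run held 1 GC box, the Col4a5 run 1 CCAAT, and the Col6a4 run 1 CCAAT and 2 GC boxes, so no motif was common to the 5 genes. Windows of 300 bases, from 250 before to 50 after the start, were found for 35 of the 44 collagens, 38 windows in all. CCAAT was in 34.2% of collagen windows and 37.4% of the 32851 windows of all genes, TATAAA in 13.2% and 13.6%, GGGCGG in 60.5% and 35.7%, and TGANTCA in 2.63% and 7.81%. GGGCGG holds only G and C, and the median GC content of all windows was 52.7%. Most collagen windows lay above that, in a range from 37.7% for Col3a1 to 75% for Col5a1. The part of GC content in the difference for GGGCGG was not tested. Some collagen windows share bases, such as those of Col4a1 and Col4a2. A match is a description of these letters, not a binding site.

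Genes that act on collagen were called in both directions. Over all 15555 tested genes limma called 8.90% lower and 9.68% higher. The counts in the 7 lists below are descriptions beside these shares, and no list was tested as a set. In the endoplasmic reticulum, 1 of 16 tested folding and modification genes was called, Serpinh1, the collagen-specific chaperone HSP47. It fell from 11.4, 9.83 and 9.96 RPKM in WT to 4.71, 5.09 and 3.69 RPKM in DTR libraries, a log2 change of -1.22 (SE 0.16, limma adjusted p = 0.0111). The other 15 did not pass, among them the prolyl hydroxylase subunit P4hb with a log2 change of -0.08, and the median of the list was 0.09. Of 7 tested processing and cross-linking genes 2 were higher and none lower. Lox, which oxidises lysines so that chains cross-link, rose from 0.133, 0.127 and 0.149 RPKM to 0.918, 3.12 and 0.984 RPKM (log2 change 3.37, SE 0.51, limma adjusted p = 0.0143). Lox passed the filter through its DTR level alone, with a mean log2 RPKM of -2.87 in WT and 0.50 in DTR libraries, and it was also called in the fit without a filter. Tgm2, a transglutaminase that cross-links matrix proteins, rose by 1.71 on the log2 scale (limma adjusted p = 0.0446).

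Of 10 tested breakdown and uptake genes 3 were lower and none higher. Mmp13, a collagenase that cuts fibrillar collagen, fell from 3.2, 2.9 and 3.0 RPKM to 0.383, 0.267 and 0.903 RPKM, a log2 change of -2.74 (limma adjusted p = 0.0157). Mmp9, a gelatinase that cuts denatured collagen and collagen IV, changed by -1.98 (limma adjusted p = 0.0111), and Pepd, the prolidase that frees proline from dipeptides, by -0.72 (limma adjusted p = 0.0133). The list's median was 0.28, and Mmp2 had a log2 change of 0.01. Among 7 tested receptors, Adgrg1, which binds collagen III in the brain, rose by 1.18 (limma adjusted p = 0.00927), and the integrin subunit Itgb1 changed by 0.16 without passing. Of 7 tested small leucine-rich proteoglycans, which coat fibrils, Podn was lower (log2 change -1.93, limma adjusted p = 0.0418), and decorin, Dcn, had a change of 0.69 that did not pass.

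Among the 14 tested partners in the basement membrane, the laminin chains Lama3 and Lamc1 rose by 1.10 and 0.90 on the log2 scale (limma adjusted p = 0.02 and 0.0428). The proteoglycan agrin, Agrn, fell by 0.45 (limma adjusted p = 0.0423). Of 13 tested genes of TGF-beta signalling and matrix induction 1 was higher and none lower, with a list median of 0.35. The receptor Tgfbr2 measured 3.97, 3.41 and 3.83 RPKM in WT and 14.2, 12.7 and 19.8 RPKM in DTR libraries, a log2 change of 2.03 (SE 0.19, limma adjusted p = 0.00473). Ccn2, a matricellular protein gene, had a change of 2.10 that did not pass (limma adjusted p = 0.0703). Tgfbr2 was called under all 18 other settings tried. Of the 12 genes called in these 7 lists, 1, 2 and 1 were still called without WT replicate 1, 2 and 3.

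**Figure D5:**
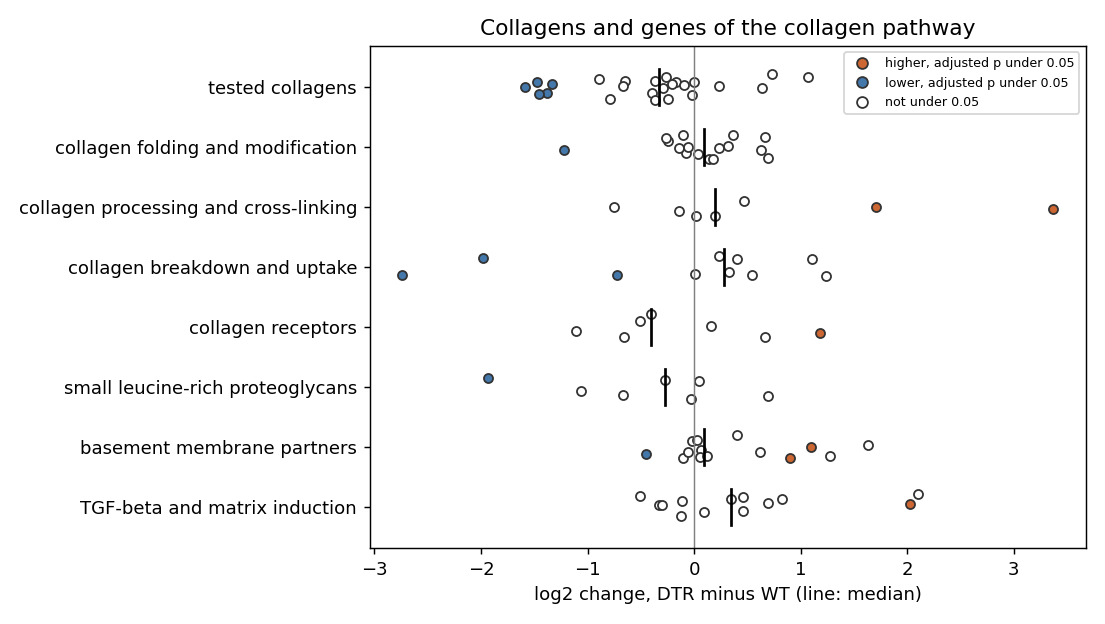
Log2 change, DTR minus WT, of each tested gene of the collagens and of 7 collagen pathway lists; filled points were called by limma, open points were not, and lines mark list medians. Lox (3.37) lies farthest to the right and Mmp13 (-2.74) farthest to the left.

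Markers of the cells that make collagen were measured beside these genes, and their part in the collagen changes was not tested. Their counts too stand beside 8.90% called lower and 9.68% called higher of all tested genes. Of 11 tested fibroblast markers, Thy1 and Fbln1 were lower (log2 changes -1.53 and -0.87) and Gsn, a marker shared with muscle and other cells, was higher (2.12). The rest of the tested fibroblast markers were not called, with log2 changes from -0.38 to 0.69. The list summed to 93.0 to 110 RPKM in WT and 128 to 202 RPKM in DTR libraries. Without Gsn the sum was 87.4, 76.8 and 71.9 RPKM in WT and 63.8, 69.2 and 46.4 RPKM in DTR libraries, so the direction turned and the groups still did not overlap. Fbln1 was the largest part of that sum in every library. It measured 54.4, 48.1 and 44.8 RPKM in WT and 36, 24.1 and 22.1 RPKM in DTR libraries. Neither sum stands for the list as a set, whose median log2 change was -0.17. Of 10 smooth muscle markers Mylk was lower (-1.13), with sums of 160 to 205 and 185 to 319 RPKM. Of 10 endothelial markers Lyve1, a lymphatic marker, was higher (1.43), with means of 1.61 RPKM in WT and 4.39 RPKM in DTR libraries. The sums, Lyve1 included, were 8.05 to 13.3 and 11.2 to 17.3 RPKM, which overlap, and the list's median log2 change was 0.15. Leukocyte markers were lower for 4 of 6 (Ptprc -1.54, Itgax -2.26, Adgre1 -1.39, Cd3e -1.33), and their sum was 14.9 to 21.5 RPKM in WT and 3.67 to 7.3 RPKM in DTR libraries. Intestinal epithelium markers were present at sums of 9610 to 11700 RPKM in WT and 7250 to 9910 RPKM in DTR libraries, with Krt18 higher (1.27) and Sis and Vil1 lower (-1.25 and -0.85). Pancreas markers summed to 11200 to 32000 RPKM in WT and 7450 to 23300 RPKM in DTR libraries, which overlap, and none of the 5 tested was called. The sixth, Amy2a5, was below the filter and measured 0.701, 2.64 and 0.77 RPKM in WT and 0.226, 0.0164 and 0.0243 RPKM in DTR libraries, with no overlap. No marker of glia and neurons, mesothelium or adipocytes was called. Among mesothelial markers, Lrrn4 had 140, 100 and 1 reads in DTR replicates 1 to 3. In the same libraries Msln measured 2.08, 3.21 and 0.405 RPKM and Upk3b 1.76, 2.04 and 0.128 RPKM, while Upk1b measured 1.92, 2.92 and 1.73 RPKM. Adipocyte markers summed to 80.1 to 106 RPKM in WT and 120 to 469 RPKM in DTR libraries. Most of that was Cidec, at 77.7 to 92.5 RPKM in WT and 112 to 352 RPKM in DTR libraries. Without it the sum was 14, 4.26 and 2.43 RPKM in WT and 8.01, 117 and 13 RPKM in DTR libraries, which overlap. DTR replicate 2 stood apart with 12.7 RPKM of Adipoq, 39.4 of Car3 and 63 of Fabp4. It was the highest library for Col1a1 and Col1a2. Among DTR libraries it was the highest for 6 of the 24 tested collagens and the lowest for 11. WT replicate 1, the highest WT library for 18 of the 24 tested collagens, also stood apart within its group. Adipoq measured 3.02, 0.189 and 0.153 RPKM and Car3 5.04, 0.468 and 0.359 RPKM in WT replicates 1 to 3. Of the 12 marker genes called, Gsn alone was still called when any 1 WT library was left out.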

How the data were processed

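RNA was measured in 3 WT and 3 DTR libraries. The authors deposited log2 RPKM per gene. The authors used edgeR, STAR, Subread, featureCounts, MultiQC and FastQC and build mm10, per the submitters' processing notes. The sources used here do not state versions or a strand setting. The deposited library table also gives reads in genes and a normalization factor, a ratio that rescales them. Other deposited columns, such as gene length, served as annotation. With the log and its prior count of 0.25 removed, 100% of values came out as whole reads (tolerance 1e-06). They gave the read numbers and a voom fit, which called 3380 genes.

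Genes with a mean log2 RPKM above -2 that varied were tested (15555). A group of 8 genes with 0 reads in every library, kept above that filter by the prior, was left out. DTR was compared with WT by limma 3.58.1 (R 4.3.3), using a variance trend and a two-sided test, with Benjamini-Hochberg over all tested genes at 0.05. Changes are on the log2 scale of the deposited values, whose prior shrinks changes of genes with few reads. The code was tested on simulated data. The library titled WT2 carries the description of WT1, so columns were matched by title. Samples were compared without pairing.

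The members and lists were chosen with earlier results of these data known. Named by rule were called collagens, the 10 most abundant of the 45 names (Col4a3bp included, so that Col1a1, next in order, fell outside), and the most abundant tested member of each class with neither; in other lists, called genes and up to 2 abundant ones. Col1a1, Col5a1, Col5a2, Col6a5, Col11a2, Col12a1, Col16a1, Col20a1, Col23a1, the collagens below the filter, Mmp2, Dcn and Ccn2 were named after their values were seen. Marker sums without Gsn or Cidec were also chosen after values were seen, as were Upk3b, Lrrn4, Adipoq and Car3. 1 result on a gene of these lists is not reported here, and the list counts leave it out. Positions come from GENCODE M21 and promoter windows from RefSeq. Alternatives were other pseudocounts, filters, normalizations, limma settings, the replicate number as a block, and each library left out in turn.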

Additional observations from a re-analysis of the deposited data

How the results depend on the processing

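The count of collagens called lower was 5 in the main fit, beside 8.90% of all tested genes. It became 1 with a filter of mean log2 RPKM above 0 (11 collagens tested), beside 10.2% of all tested genes. Without a filter it was 1 of 44, beside 4.19%. It was 3 with quantile normalization, beside 9.45%, and 0 with the replicate number as a replicate block, beside 4.58%. Leaving out 1 library gave 0 to 5. It was 0 without WT replicate 1, 2 or 3, beside 0.713% to 0.772% of all tested genes. Without DTR replicate 1, 2 and 3 it was 5, 2 and 1, beside 17.7%, 7.88% and 3.67%. The count called higher, 0, became 1 (Col4a1) with array weights, beside 16.3% of all tested genes. Leaving out a library gave 0 to 1, and the 1 was Col4a1 without DTR replicate 1, beside 18.4% of all tested genes. The median log2 change, -0.33, became -0.14 with a pseudocount of 1 RPKM, and leaving out a library gave -0.38 to -0.23. Col6a2, at 0.00, became -0.01 with median centring and with quantile normalization, and leaving out a library gave -0.16 to 0.15 for it, -0.26 to 0.12 for Col1a2 and -0.44 to 0.14 for Col7a1. The 5 called genes stayed negative under every setting in which they were tested. Col6a4 had an adjusted p of 0.0508 when the 8 genes without reads were kept, a setting added after seeing the data. Its adjusted p ranged from 0.0254 to 0.145 over the settings, that of Col6a3 from 0.0146 to 0.119, of Col15a1 from 0.0234 to 0.136, of Col27a1 from 0.0184 to 0.0816 and of Col4a5 from 0.0258 to 0.108. Col27a1 and Col4a5 fell below the filter without any 1 WT library. Same-numbered libraries had correlations of -0.0109, -0.0024 and 0.1645 between their deviations from the group means, so the numbers were not taken to pair them; the block lowered calls over all genes from 2890 to 1343. The cause of these shifts was not tested.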
